A study of Caenorhabditis elegans with 2 samples.

Results

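Calls at the promoters of chemoreceptor genes were examined in chromatin immunoprecipitation and sequencing (ChIP-seq) of the tagged transcription factor SDZ-12 in Caenorhabditis elegans. A member was any call of the pooled list whose summit lay from 1000 bp upstream to 200 bp downstream of the annotated 5′ end of a protein-coding gene named for a chemoreceptor family (22 families, among them sra, srh, sri, srw and str). The rule named 1240 genes and found 212 of the 30000 pooled calls, at the promoters of 194 genes. It used gene names and positions only, so signal, replicate recovery and sequence were free to vary. The rule also caught src-1 and src-2, which carry a matching name but encode tyrosine kinases of the Src family. Only src-1 had a call, so 193 of the 194 genes are chemoreceptor genes by family.

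SDZ-12 belongs to the C2H2 zinc finger proteins, and its gene is named for zygotic transcription that needs SKN-1. All chromatin came from strain OP670, which carries the unc-119(tm4063) mutation and the array wgIs670, in which sdz-12 is fused to TY1, EGFP and 3xFLAG and which also carries unc-119(+). The worms were whole L4 larvae of both sexes at 71 hours, synchronised by starving L1 larvae after bleaching, and the antibody was directed against GFP. There was 1 group with 2 biological replicates. The tag sits at the C terminus, the transgene is present beside whatever the endogenous locus makes, and its expression by cell type is not given in the labels. The authors called intervals against a control file, but no other strain, stage or untagged line was compared here, so binding cannot be told apart from signal that any anti-GFP precipitate would give at the same place. Chromatin of the whole animal mixes all tissues, and a call does not say in which cells it arose.

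Chemoreceptor genes of nematodes encode seven-transmembrane G protein-coupled receptors that sit mostly in the cilia of sensory neurons and detect odours, tastes and pheromones. They form large families, grouped into the Str, Srg and Sra superfamilies and several solo families, and many lie in tandem clusters on the autosomal arms. A typical receptor gene is transcribed in a few neurons, which are a small part of a whole larva.

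Sequences are given for some of the strongest members. Some other strong members, such as srh-214 and srh-36, had windows with no stretch of the kinds marked below. Small RNA genes (tRNA, snoRNA or snRNA) lay within 200 bp of 3.30% of all members, against 2.11% of all pooled calls. Each of the 5 sequences given here holds a marked stretch, so they do not stand for the members at large. They are not all such windows either. The window of srh-179 held 10 copies of a short repeated sequence and is not given. Each runs 50 bp to either side of the pooled summit and is given 5′ to 3′ on the plus strand of WBcel235 (the assembly also called ce11), from RefSeq. At srh-269 (V:16592269-16592369) the capitals are bases of a tRNA gene on the minus strand, and at srd-44 (X:12337974-12338074) they are a whole tRNA gene, also on the minus strand. At srh-2 (V:727815-727915) the capitals are coding bases of the neighbouring gene icl-1. At srw-84 (V:19380470-19380570) they mark copies of CCTTGA. At srw-85 (V:19431282-19431382) they mark GGTTCGA, the start of the B box, an internal promoter element of tRNA genes.
srh-269: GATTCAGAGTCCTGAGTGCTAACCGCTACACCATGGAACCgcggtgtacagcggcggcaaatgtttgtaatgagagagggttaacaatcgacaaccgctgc
srd-44: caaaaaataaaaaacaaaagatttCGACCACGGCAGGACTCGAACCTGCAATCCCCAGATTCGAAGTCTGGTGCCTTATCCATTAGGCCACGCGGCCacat
srh-2: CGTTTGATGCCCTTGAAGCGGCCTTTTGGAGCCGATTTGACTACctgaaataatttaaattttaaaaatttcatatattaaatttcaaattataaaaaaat
srw-84: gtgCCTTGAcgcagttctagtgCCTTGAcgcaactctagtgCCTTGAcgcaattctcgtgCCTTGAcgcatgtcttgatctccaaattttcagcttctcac
srw-85: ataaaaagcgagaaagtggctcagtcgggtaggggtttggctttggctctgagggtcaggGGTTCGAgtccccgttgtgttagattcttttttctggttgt

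Fewer receptor genes than other genes carried a call. A pooled call lay in the promoter window of 194 of 1240 receptor genes, or 15.6% (95% Wilson interval 13.7 to 17.8), against 6115 of 18733 other protein-coding genes, or 32.6% (32.0 to 33.3). Over all protein-coding genes the share was 31.6%. The intervals cover counting error over genes only, and genes of a cluster are not independent of each other, so no test was made. A single call was present at 175 receptor genes and 2 calls were present at 18. One gene, srx-21, had 3 calls. Both srw-135 with srw-136 and srh-185 with srt-16 shared a call between their windows, with signals of 57.7 and 52.1, which makes 214 pairs of call and gene. The pooled list includes background calls by design, so a call in it is not by itself a peak.

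With stricter demands the gap stayed in the same direction. A pooled call that was found again within 200 bp of a summit in both replicate lists lay at 72 receptor genes, or 5.81%, against 16.2% of all protein-coding genes. The optimal list, which the authors derived with the irreproducible discovery rate (IDR), put a peak at 3 receptor genes, or 0.242%, against 1.61% of all protein-coding genes. Other large families had higher values. Nuclear hormone receptor (nhr) genes had a pooled call at 82 of 269 genes, or 30.5%, and cuticle collagen (col) genes at 44 of 156, or 28.2%. The srbc genes, chemoreceptors outside the rule, had one at 11 of 71 genes, or 15.5%, close to the receptor genes of the rule.

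Families differed in how often they carried a call, but most of their intervals overlap. Among families with at least 30 genes the highest share was in sri, with 16 of 61 genes or 26.2% (interval 16.8 to 38.4). It was followed by srj with 9 of 39 or 23.1%, srg with 13 of 61 or 21.3%, sre with 10 of 54 or 18.5%, and srh with 40 of 220 or 18.2% (13.6 to 23.8). The second largest family, str, had a call at 26 of 193 genes, or 13.5% (9.36 to 19). At the low end of these stood srd with 7 of 67 or 10.4%, srv with 3 of 30 or 10%, srsx with 3 of 37 or 8.11%, sru with 3 of 39 or 7.69%, and sra with 1 of 35 or 2.86% (0.506 to 14.5). The sri and sra intervals do not overlap, while those of srh and sra do. The sri and sra shares are the highest and lowest among these families, so that contrast was picked by the values it compares. The median GC content of the promoter window was 36.1% in sri, 31.9% in sra, 31.4% in sru and 31.2% in srv. Its part in the order of the families was not tested. Of the smaller families srab had 4 of 23 or 17.4%, srxa 1 of 17 or 5.88%, srr 1 of 9, srm 1 of 6 and src 1 of 2. None of the 12 srb genes had a call, which allows a share of up to 25%, and the 1 srn gene had none. All 15 families with at least 30 genes had a lower share than all protein-coding genes, and in 12 of them the whole interval lay below it.

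**Figure D1:**
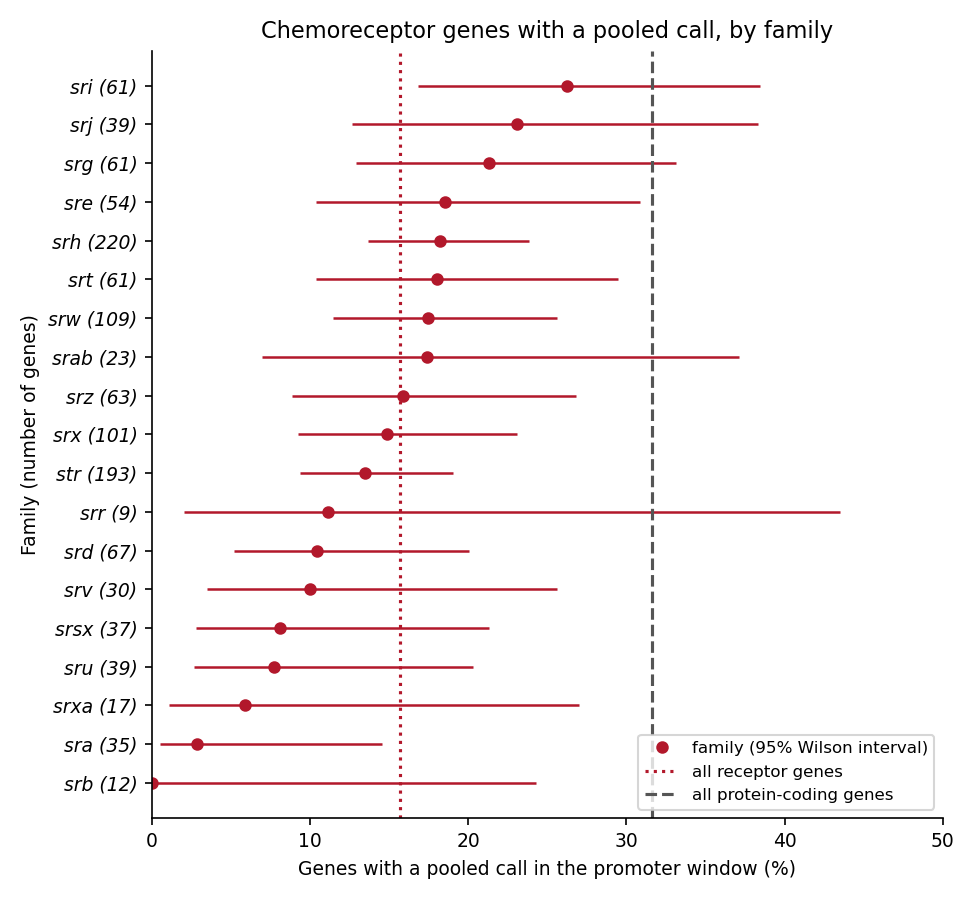
Share of genes with a pooled call in the promoter window (x axis, percent) for each receptor family (y axis, with its number of genes), as points with 95% Wilson intervals, beside all receptor genes (dotted line, 15.6%) and all protein-coding genes (dashed line, 31.6%); families smaller than 9 genes are not drawn. Every point lies left of the dashed line, from sri at 26.2% to sra at 2.86% and srb at 0.

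Grouped by superfamily, the shares lay closer together. The Str superfamily (srd, srh, sri, srj, srm, srn and str) had a call at 99 of 587 genes, or 16.9%, with a median signal of 61.2 over its calls. The solo families srw, srz, srsx and srr had one at 33 of 218 genes, or 15.1%, with a median of 60.6. The Srg superfamily (srg, srt, sru, srv, srx and srxa) had one at 46 of 309 genes, or 14.9%, with a median of 59.3. The Sra superfamily (sra, srab, srb and sre) had one at 15 of 124 genes, or 12.1%, with a median of 63.6. The medians thus lay within 59.3 to 63.6, and the 3 members of the optimal list belong to Sra and Str.

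The signal of these calls was low for the list. Signal is the authors' own score of enrichment per call, on a scale that the sources used here do not give, and it served only to rank and describe calls. Over the 212 members it ran from 48.2 to 266 with a median of 60.6 (quartiles 53.8 and 70.5), against a median of 65.2 (55.5 and 80.8) over 6363 calls at the promoters of other protein-coding genes only and 64.2 (55.04 and 78.6) over all pooled calls. The weakest call of the whole pooled list had a signal of 48.1, so the weakest members stood at the floor of that list. A signal over 100 was reached by 8 members, or 3.77%, against 9.08% of all pooled calls. Of the members 29, or 13.7%, were among the strongest 7500 pooled calls and 125, or 59.0%, among the weaker 15000. The optimal list, made of the 665 strongest pooled calls, held 3 of the 212 members, or 1.42% (interval 0.482 to 4.08), against 2.22% of all pooled calls and 3.96% of the calls at other promoters.

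**Figure D2:**
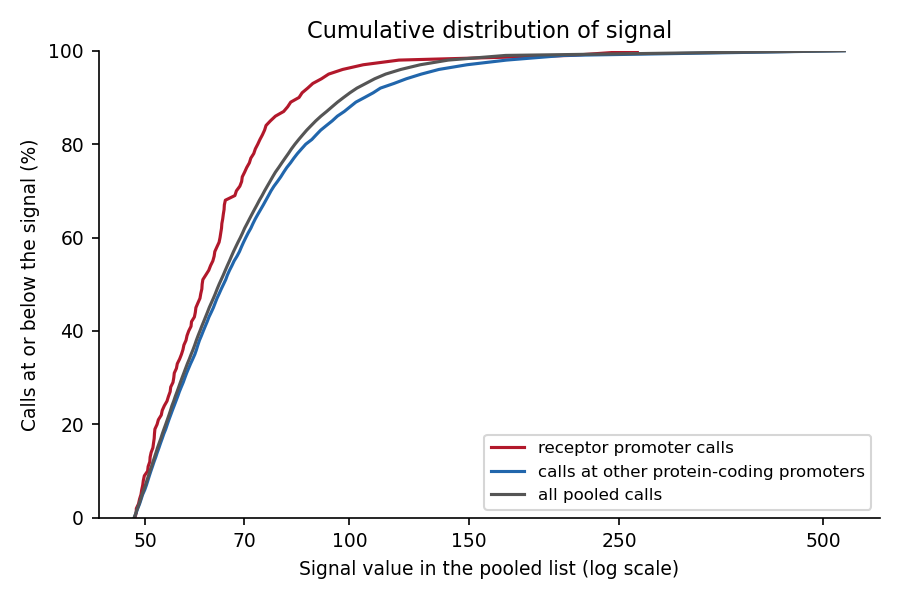
Cumulative share of calls (y axis, percent) at or below a signal value in the pooled list (x axis, log scale) for receptor promoter calls (red, 212), calls at other protein-coding promoters (blue, 6363) and all pooled calls (grey, 30000), drawn at percentiles. The red curve lies to the left of the others over most of its height, with medians of 60.6, 65.2 and 64.2.

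The strongest member lay upstream of sre-23, a gene of the Sra superfamily on the minus strand of chromosome I (8256301 to 8258939). Its call (8259346 to 8259765) had a signal of 266 in the pooled list, at rank 53, with 144 in replicate 1 and 120.2 in replicate 2. The summit lay 617 bp upstream of the annotated 5′ end, outside any protein-coding gene and within 200 bp of the snoRNA gene ZK265.10 (8259437 to 8259498). It ranked 50 in replicate 1 and 75 in replicate 2, so both replicates placed it near the top of their lists.

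The second call was upstream of srh-269, on the minus strand of chromosome V (16590156 to 16592042). The call (16592109 to 16592528) had a signal of 230.1 and rank 102, with 110.4 at rank 154 in replicate 1 and 112 at rank 111 in replicate 2. Its summit lay 277 bp upstream of the gene, and the tRNA gene WBGene00014499 (16592237 to 16592308) runs into the sequence given above. A weaker call with signal 72.1 lay at 484 bp upstream, and in replicate 1 it was matched to the same call as its neighbour. The nearness of these small RNA genes was measured, and their part in the signal was not tested.

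The third member of the optimal list was at srh-2, on the plus strand of chromosome V (728301 to 734311). The call (727655 to 728074) had a signal of 223 and rank 116, with 130 (rank 83) in replicate 1 and 100.6 (rank 172) in replicate 2. Its summit was 436 bp upstream of srh-2, in an intron of icl-1 near the start of that gene (724332 to 728004, minus strand), and the promoter window of icl-1 holds it as well. The protein ICL-1 carries out the glyoxylate cycle, and its 5′ end is nearer to the summit than that of srh-2, so the call cannot be assigned to either gene. A further call of signal 64.8 lay 229 bp upstream of srh-2, with 38.9 in replicate 1 and 55.5 in replicate 2. The promoter window of icl-1 holds this call too, and the 5′ end of icl-1 is again the nearer.

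The other members with a signal over 100 were weaker, and all but srh-179 differed between the replicate lists. At srd-44 (chromosome X, plus strand, 12338440 to 12340248) the call (12337814 to 12338233) had a signal of 126, with 71.0 in replicate 1 and no call in replicate 2. Its summit lay 416 bp upstream, inside the tRNA gene WBGene00014338 (12337998 to 12338070), and only 21.1% of the 31-base words around it occur once in the genome. At srh-179 (chromosome V, plus strand, 18476390 to 18478061) the signal was 121, with 55.004 in replicate 1 and 54.7 in replicate 2. That summit lay 756 bp upstream in an intron of srh-181, another receptor gene, where 76.1% of the 31-base words occur once. Sequence that is not unique was thus present at both, and its part in their signal was not tested.

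The remaining 3 belonged to the srw family, solo receptors related in sequence to neuropeptide receptors. For srw-1 the signal was 109, with 49.0 in replicate 1 and 60.8 in replicate 2, and the summit lay 69 bp inside the gene in its own coding exon. For srw-84 it was 107, with 39.2 in replicate 1 and 65.6 in replicate 2. That summit lay 748 bp upstream in an intron of nceh-1, and the sequence given above holds 4 copies of CCTTGA. A 6-base word with 4 or more copies was present in such windows of 11 members (5.19%). The share was 3.17% in calls at other promoters and 4.12% in all pooled calls. At srh-179 a word of this length had 10 copies. For srw-85 the signal was 101.4, with 58.2 in replicate 1 and 43.6 in replicate 2. Its summit lay 196 bp upstream inside an annotated pseudogene, WBGene00014686 (19431291 to 19431363). The replicates thus ranked srw-84 and srw-85 in opposite order.

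The next 12 members had signals from 85.2 to 99.3. In the srh family srh-214 had a signal of 99.3 (59.6 in replicate 1 and 41.3 in replicate 2) at 341 bp upstream, and srh-36 one of 95.8 (42.4 and 53.2) at 431 bp upstream, in sequence of 54.5% GC. The calls of srh-173 (89.1) and srh-282 (85.5) were also found in both replicates, the first of them 143 bp inside its gene. Among other families, srw-48 had 93.5, srt-31 had 92.9 (30.002 in replicate 1 and 62.2 in replicate 2), str-97 had 91.9 and sre-1 had 90.5. Below them came srx-21 with 88.1, srz-56 with 87.4 (the only member on chromosome III), sri-5 with 86.7 and sri-30 with 85.2. The windows of F26D2.16, B0495.9, C39B5.10, rsr-1 and sma-10 also hold the calls given here to srw-48, sre-1, srz-56, sri-5 and srh-282. Of the 20 strongest members 18 were in both replicate lists; the 2 that were not are srd-44 and sri-30, both with a call in replicate 1 only (60.8 for sri-30).

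The strongest call of each other family was weaker still. It had a signal of 84.5 at srj-11, 81.1 at sru-44, 79.9 at srg-46, 78.5 at srab-12, 76.2 at srv-6 and 73.3 at srr-1. It had 60.2 at srsx-11, 55.2 at sra-24, 54.4 at srxa-15 and 49.6 at srm-5. Of these 10 calls, those at srj-11, srab-12 and srr-1 were found in both replicates. The summits given to srg-46, srv-6, srsx-11 and srm-5 lay in coding exons of F32H5.4, taf-11.1, srsx-12 and srm-4, in that order. The call at srj-11 was uneven, with 57.5 at rank 2559 in replicate 1 and 26.7 at rank 26103 in replicate 2. The call at src-1, the tyrosine kinase gene, had a signal of 52.7 at 1 bp inside the gene, with 32.0 in replicate 1 and 29.7 in replicate 2.

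The gene with 3 calls, srx-21, had its strongest at 919 bp upstream, in an intron of the F-box gene fbxa-72, with 45.2 in replicate 1 and 42.1 in replicate 2. The call 186 bp upstream had a signal of 69.4, with 38.5 in replicate 1 and none in replicate 2. The one 126 bp inside the gene had 50.8, with none in replicate 1 and 43.2 in replicate 2. Only the first of the 3 was therefore present in both. The 5′ end of fbxa-72 is nearer than that of srx-21 to the calls 919 and 186 bp upstream. The promoter window of fbxa-72 also holds the calls 186 bp upstream and 126 bp inside. None of the 3 can thus be assigned to srx-21 alone.

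The replicate lists shared a minority of the members. A call within 200 bp was present in the replicate 1 list for 139 members (65.6%), against 71.1% of all pooled calls, and in the replicate 2 list for 134 (63.2%), against 69.96%. Both lists held 75 members, or 35.4% (interval 29.3 to 42.02), against 45.7% of all pooled calls and 47.4% of calls at other promoters. Of these 75, 4 share their replicate 1 call with another member. Replicate 1 alone held 64, replicate 2 alone held 59, and 14 (6.60%) were in neither. For scale, 11.5% of the genome lies within 200 bp of a summit of either single list and 4.79% within 200 bp of summits of both.

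Recovery followed signal, in the members as in the whole list. Among the strongest 7500 pooled calls 24 of 29 members (82.8%) were in both replicate lists, against 88.5% of all pooled calls of that range. In the next 7500 it was 35 of 58 (60.3%), against 58.6%. In the 7500 after those it was 14 of 62 (22.6%), against 27.3%, and in the weakest 2 of 63 (3.17%), against 8.27%. The members were thus recovered slightly more often than all pooled calls in the second range and less often in the other 3.

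Where both replicates had a call, their signals were loosely related. Across the 75 members Spearman's rho between the replicate signals was 0.17, against 0.41 across 3017 calls at other promoters and 0.32 across 13696 pooled calls. Pearson's r of the log2 signals was 0.53 for the members, against 0.58 at other promoters and 0.47 over the pooled calls, so the order of the members and the pooled calls differs between the measures. These are correlations across calls that share libraries, and calls are not independent replicates. A replicate 1 call was shared between members in 4 of the 75, at srh-269 and at srj-19, so its signal enters more than once. Without the 3 members of the optimal list rho was 0.06 and r was 0.10 over 72 members, which still include the weaker srh-269 call. The 3 rank within the first 665 calls of both replicate lists, and srd-44, at rank 924 in replicate 1, does not.

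**Figure D3:**
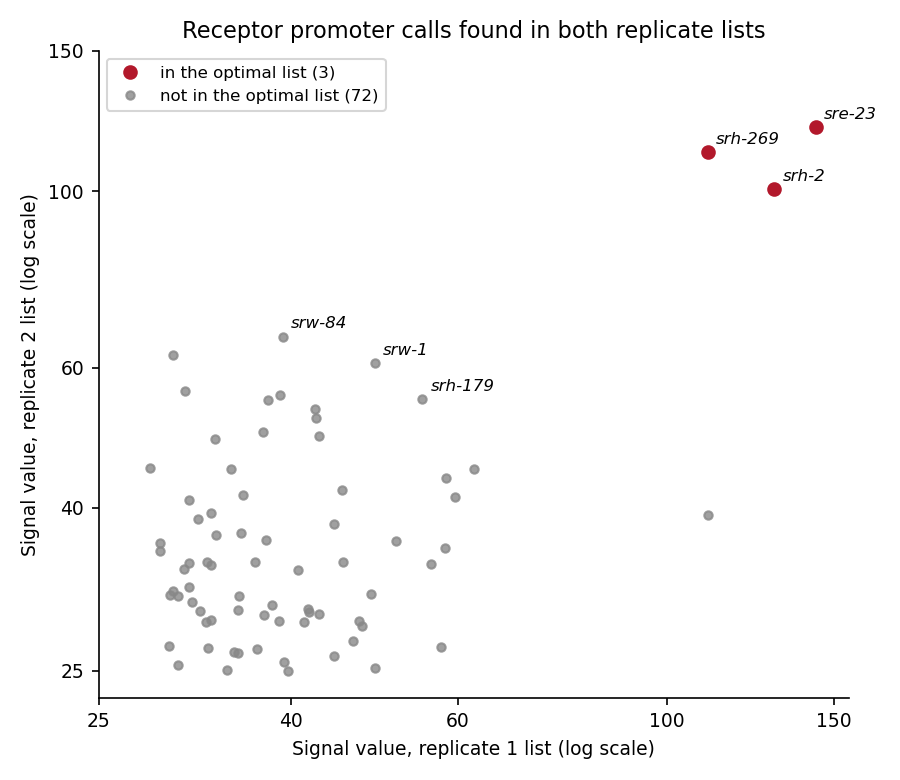
Signal in the replicate 2 list (y axis) against signal in the replicate 1 list (x axis), both on log scales, for the 75 receptor promoter calls found in both lists, with the 3 of the optimal list in red and the other 72 in grey. sre-23, srh-269 and srh-2 stand apart at the upper right, the grey point near 110.4 in replicate 1 is the second call of srh-269, matched to the same replicate 1 call, and the rest form a cloud with rho 0.06 over the 72 grey points.

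Most members lay on chromosome V, where most of these genes are. Chromosome V held 151 of the 212 calls, or 71.2% (interval 64.8 to 76.9), against 66.3% of the receptor genes and 19.9% of all pooled calls. Chromosome II held 35, IV held 12, I held 10, X held 3 and III held 1. The share of receptor genes with a call was lower than that of other protein-coding genes on every chromosome. It was 16.9% (139 of 822) against 29.4% on V, 18.3% (31 of 169) against 32.3% on II, and 7.33% (11 of 150) against 29.99% on IV. On the chromosomes with few receptor genes it was 25.7% (9 of 35) against 37.4% on I, 9.09% (3 of 33) against 29.8% on X, and 3.23% (1 of 31) against 39.3% on III. On chromosome I the receptor interval (14.2 to 42.1) includes the value of the other genes.

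Position along the chromosome was related to the share as well. In the left, middle and right of chromosome V, cut in 3 equal lengths, receptor genes had a call in 19.6%, 8% and 20% of cases, against 31.9%, 26.7% and 30.1% of other genes. The middle held 16 of 200 receptor genes with a call. On chromosome II the shares were 21.5%, 5.41% and 22.6%, against 28.1%, 29.0% and 42.1% of other genes, with 2 of 37 in the middle. The outer parts of both chromosomes thus had a higher share than the middle in receptor genes. The median promoter GC of receptor genes in the left, middle and right was 33.2%, 32.3% and 34.1% on V and 36.1%, 31.9% and 34.9% on II, so GC moved with position, and its part in this was not tested.

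Promoter GC content ran parallel to the share with a call. The median GC of the promoter window was 33.2% in receptor genes and 35.1% in other protein-coding genes, with 52.3% of receptor genes against 32.0% of others in the lowest of 3 equal GC classes of all protein-coding genes. In the low class 6.93% of receptor genes (45 of 649) had a call, against 15.7% of others. In the middle class it was 18.4% (68 of 370) against 30.7%, and in the high class 36.7% (81 of 221) against 50.1%. Within each class the receptor share stayed below that of other genes and the intervals did not overlap. How much of the overall gap goes with GC was not tested.

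**Figure D4:**
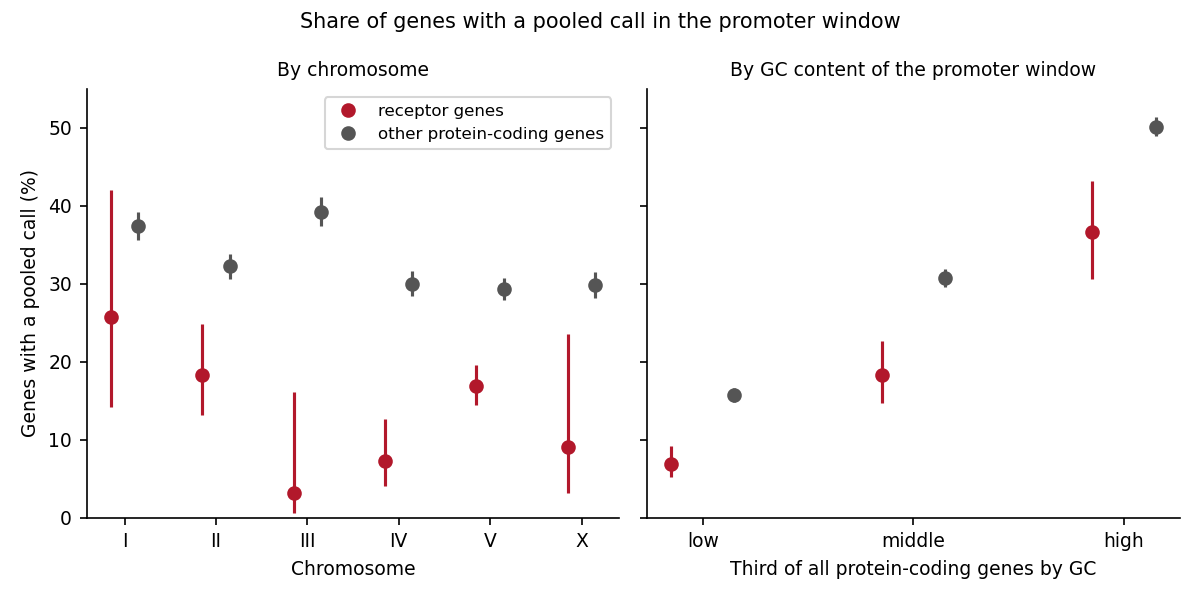
Share of genes with a pooled call in the promoter window (y axis, percent, with 95% Wilson intervals) for receptor genes (red) and other protein-coding genes (grey), by chromosome (left) and by class of promoter GC content (right). The red points lie below the grey ones throughout, from 36.7% against 50.1% in the high GC class to 6.93% against 15.7% in the low one.

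Other features of the genes also differed. All 31-base words of the promoter window were unique in 51.9% of receptor genes, against 61.8% of other genes. With unique promoters 13.2% of receptor genes had a call, against 34.4%, and with others 18.3%, against 29.8%. The annotated 5′ end was the first coding base in 77.3% of receptor genes, against 19.95% of others, so the window of a receptor gene more often starts from the start codon than from a mapped transcript end. With such a 5′ end 15.1% of receptor genes had a call, against 26.8% of others, and without it 17.4% against 34.1%. The gap was present in each of these 4 subsets.

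Within the window, summits of members lay further upstream of the annotated 5′ end. That end was the first coding base in 77.3% of receptor genes, against 19.95% of others, so the distances start from unlike points. The part of this in the difference was not tested. The median position over 214 pairs was 440.5 bp upstream of the 5′ end (quartiles 748 and 110 bp upstream), against 332 bp upstream (679 and 27) over 7255 pairs of other genes. Of the pairs 182 were upstream and 32 at or inside the 5′ end. The first 200 bp of the gene held 14.95% of the receptor pairs, against 22.3% of other pairs, and the stretch more than 600 bp upstream held 38.8% against 30.8%.

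**Figure D5:**
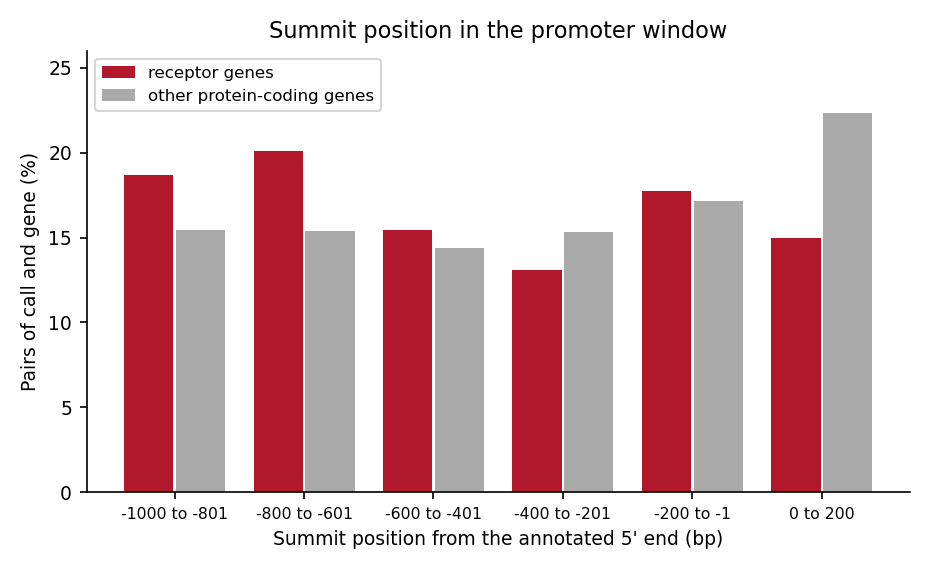
Share of pairs of call and gene (y axis, percent) by position of the summit from the annotated 5′ end (x axis, bp, negative upstream) for receptor genes (red, 214 pairs) and other protein-coding genes (grey, 7255 pairs). Red bars are lower at 0 to 200 bp (14.95% against 22.3%) and higher in the groups beyond 600 bp upstream. The annotated 5′ end is more often the first coding base in receptor genes, so positions start from unlike points.

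The number of members depends on the reach of the window, and calls lay close to both of its edges. The calls just inside its upstream edge were at srg-44 (992 bp upstream, signal 53.0) and srab-11 (989 bp, 56.8), and those just outside at str-115 (1023 bp, 51.4) and srt-17 (1027 bp, 59.4). Inside its downstream edge were sri-69 (199 bp, 59.4) and srd-39 (187 bp, 61.6), and outside were srw-6 (202 bp, 75.01) and srx-122 (207 bp, 54.3).

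Most member summits lay outside protein-coding genes, a larger share than in the other sets of calls. Of the 212 members 125, or 59.0%, did so, against 47.6% of calls at other promoters and 28.3% of all pooled calls. The other 87 lay inside a protein-coding gene. Of these 87, 62 lay in a receptor gene (32 in the gene whose window holds them and 31 in another receptor gene, 1 of them in both) and 25 in a gene that is no receptor. Coding exons held 56 (26.4%), against 30.6% of calls at other promoters, and introns held 26 (12.3%) against 12.9%. Untranslated or other exons held 5 (2.36%) against 8.94%. In most receptor genes the annotated 5′ end is the first coding base, which leaves no annotated untranslated bases there. Its part in these shares was not tested. The window of another protein-coding gene held 31 members (14.6%) too, and for 191 (90.1%) the nearest protein-coding 5′ end was that of a receptor gene. A call can thus lie in more than 1 promoter window.

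Small RNA genes (tRNA, snoRNA or snRNA) lay within 200 bp of 7 members, or 3.30% (interval 1.61 to 6.66). The share was 2.25% of calls at other promoters and 2.11% of all pooled calls, and the interval includes both values. Beside sre-23, srh-269 and srd-44 these were a call at srh-70 (signal 82.3, snoRNA T21B4.20), 2 at sre-44 (51.3 and 49.7, snRNA C47F8.9) and 1 at srz-58 (50.8, a tRNA gene). These last 3 genes, and srw-135, srw-136, srh-185, srt-16 and srh-272, were named after their values were seen. Of the 3 members of the optimal list, 2 were among these 7. The same share over the whole optimal list was not computed, so this count cannot be read as a trait of the members.

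The sequence at member summits was somewhat poorer in GC and less often unique. In the window that reaches 50 bp to each side, GC averaged 40.8% ± 8.23 (SD over 212 calls), against 42.4% ± 8.88 at other promoters and 42.7% ± 8.45 over all pooled calls. The summit window held only unique 31-base words in 178 members (84.0%), against 92.0% of calls at other promoters. Repeat-masked bases averaged 27.2% of the window, against 22.5%.

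Motifs were sought on both strands of the same window. TATAAA, the core of the TATA box, was in 27 members (12.7%), against 6.90% of calls at other promoters and 6.14% of all pooled calls. A run of 8 T (TTTTTTTT) was in 20 (9.43%), against 6.44% and 6.48%. GAGAGA was in 9 (4.25%), against 9.92% and 8.17%. TAATCC, bound by homeodomain proteins of the OTX type that act in sensory neurons, was in 9 (4.25%), against 2.91% and 3.32%. The E box CANNTG was in 81 (38.2%), against 35.96% and 37.3%, and ATCAT in 39 (18.4%), against 19.8% and 20.7%. GGTTCGA was in 5 (2.36%), against 1.24% and 1.47%. The 5 were at srd-44, srw-85, srh-272, srz-58 and srab-12, and the summits at srd-44 and srz-58 lay in annotated tRNA genes. A motif in a window is a match of letters and says nothing on its own about a bound protein.

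Among 22 listed receptor genes with a known cell or ligand, 3 had a call, or 13.6%. This list was chosen and is not meant as a full set of such genes. The share was near the 15.6% of all receptor genes, against 31.6% of all protein-coding genes. At srx-44, a paralogue of the ascaroside pheromone receptor srx-43, the call had a signal of 59.1 at 929 bp upstream. It had 35.1 in replicate 1 and none in replicate 2. Its summit lay in an intron of srx-43 (V, 16017971 to 16020066, plus strand), outside the promoter window of that gene. At srh-220 and sri-51, whose promoters are used to mark ADL sensory neurons, the signals were 60.6 at 399 bp and 51.6 at 578 bp upstream, each with a call in replicate 2 only (36.99 and 30.5). The summit given to sri-51 lay in a coding exon of sri-48, another receptor gene. Around the srh-220 summit 66.2% of the 31-base words occur once in the genome. No call lay in the promoter windows of the ascaroside receptor genes srg-36 and srg-37, of srx-43, of str-2, which is expressed in 1 of the 2 AWC neurons, or of sra-6, sra-9, sra-13, srb-6, srb-13, srb-16, srd-1, srh-142, srh-234, sri-14, srj-54, str-1, str-3, str-44 and str-217.

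Genes that act downstream of or beside the receptors carried calls about as often as genes at large. Of 63 listed genes of the chemosensory pathway 20, or 31.7%, had a pooled call, against 31.6% of all protein-coding genes, with a median signal of the strongest call of 69.3 against 67.0. In receptor genes that median was 61.0. By role, a call lay at 4 of 20 G protein genes, 2 of 9 guanylyl cyclase genes, 7 of 10 genes of adaptation and signalling, 6 of 14 transcription factor genes, 1 of 2 genes of receptor traffic and none of 7 channel genes, where a count of 0 allows up to 42.9%. The receptor gene odr-10, which senses diacetyl and lies outside the rule, had none.

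The strongest pathway calls were at daf-19, the RFX factor of ciliated neurons, with a signal of 162 (70.7 in replicate 1 and 86.4 in replicate 2), and at egl-30, the Gq alpha subunit, with 150 (67.2 and 82.1). Both were in the optimal list. Weaker calls were at srbc-65 (101.3), lin-11 (87.5), srbc-83 (87.5), unc-42 (79.3), nsy-1 (79.2), grk-2 (78.9), odr-4 (76.1) and gcy-18 (74.5). Among them lin-11 and unc-42 encode homeodomain proteins of neuronal fate and nsy-1 a kinase of the AWC asymmetry pathway. The gene grk-2 encodes a receptor kinase and odr-4 a factor of receptor traffic to cilia. Of these weaker calls only that at gcy-18 was missing from a replicate list, with 51.4 in replicate 2 alone. The call at odr-4 had 53.3 in replicate 1 but 25.1, at rank 29340, in replicate 2. The protein-coding 5′ end nearest to its summit was that of Y102E9.5, so the call may not belong to odr-4.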

How the data were processed

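Per the labels, whole worms of strain OP670 were sonicated and immunoprecipitated with an antibody against GFP, in 2 biological replicates. The authors deposited lists of calls on ce11 for replicate 1, replicate 2 and both pooled (30000 each, background calls included), and an optimal list derived with IDR, per the text files deposited with them. The signal of each call is the authors' deposited score. For the caller and its version, the scale of the signal and the cutoff on IDR: not given in the sources used here. No read counts were used, so depth is unknown and intervals cover counting error only.

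Genes came from Ensembl release 115 (WBcel235) and sequence from RefSeq, with 0 calls past a chromosome end. Calls were assigned by summit to windows from 1000 bp upstream to 200 bp downstream of 5′ ends. A replicate call was matched within 200 bp of the pooled summit, the nearest one being taken. The optimal list equals the 665 strongest pooled calls. Shares have 95% Wilson intervals, and a count of 0 allows 3 counts of the total. No test was run, because 1 group allows no comparison across samples and calls or genes are not replicates. The window assignment was tested on simulated data with 200 summits planted inside or outside the window. In 200 of them the outcome was as planted: found at the right distance if inside, left out if outside.

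Named genes are those of the optimal list, of the 20 strongest members and of the strongest member per family, the known receptors, genes with 3 or more members, the members nearest the window edges, and the 10 strongest of the pathway list. The members and lists were chosen with earlier results of these data known. Alternatives changed the window, the list, the matching distance and the replicates used. Python 3.11.15, NumPy 2.4.6, SciPy 1.17.1, pandas 2.3.3 and matplotlib 3.10.9 were used.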

Additional observations from a re-analysis of the deposited data

How the results depend on the processing

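The count of members followed the reach of the window. With 500 bp upstream there were 116 member calls at 109 receptor genes (8.79%, against 21.2% of all protein-coding genes), 43 of them in both replicate lists. With 2000 bp there were 430 at 367 genes (29.6% against 47.4%), 169 in both replicate lists and 8 in the optimal list. The 10000 strongest pooled calls held 44 members at 44 genes (3.55% against 12.5%), with a median signal of 83.4 and 33 in both replicate lists. In the optimal list alone there were 3 members at 3 genes, with a median signal of 230.1, and 3 were in both replicate lists. Leaving out calls near small RNA genes left 1 member in the optimal list, at srh-2. With only 1 replicate list in use the members numbered 202 to 239 at 189 to 216 genes, and the median signal ran from 31.96 to 34.2, on the scales of those lists. The share of receptor genes was below that of all genes with either window, with the 10000 strongest calls and in either replicate list. It was not compared with all genes in the other settings, apart from the optimal list. Over 14 settings and 6 results, 65 values were compared. Of these, 47 moved a count by no more than 1.5 times or stayed within the interval of the value, and 18 moved further. Some of the 47 were fixed in advance. The optimal list is the 665 strongest pooled calls, so its 3 members had to stay with the 10000 strongest calls and with the optimal list. Leaving out src genes or adding srbc genes changed few members, so those values could hardly move. No paired analysis was possible because there is 1 group. Without read counts, depth limits cannot be given. The control data were not analysed here.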
